A study of Mus musculus with 18 samples.

Results

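The Hoxc cluster is a run of 9 homeobox genes on mouse chromosome 15, and all 9 (Hoxc4, Hoxc5, Hoxc6, Hoxc8, Hoxc9, Hoxc10, Hoxc11, Hoxc12 and Hoxc13) were taken by symbol from the 55401 genes listed for each library. They were followed over 18 poly(A) RNA libraries of a mouse embryonic stem cell line that was differentiated into gastruloids, aggregates of stem cells that make embryo-like tissues in a dish. Named RHKI, the line is an E14Tg2a derivative with a doxycycline (Dox) inducible, HA-tagged Rnaseh1 knock-in, and every group carries that knock-in. Rnaseh1 encodes a nuclease that cuts the RNA strand of RNA:DNA hybrids (R-loops), and the study's title ties R-loops to the histone variant H2A.Z and to lineage allocation. The 6 groups of 3 libraries were Dox and control at day 0 (0 h), at day 3 (72 h) and at day 5 (120 h). Dox was used at 500 ng/ml for 48 h ahead of differentiation, and the labels do not say whether it was continued. The remaining groups are the control cells. The stem cells were kept in medium with LIF and the inhibitors CHIR-99021 and PD0325901. The labels do not say whether replicates were separate cultures, so p-values measure only the spread between these samples.

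Hox genes encode transcription factors that give cells their position along the head-to-tail axis. Within a cluster the genes lie in the order of their use: those at the low-number end are switched on earlier and reach further forward, and those at the high-number end come on later and further back. In the mouse trunk Hoxc4 and Hoxc5 act at neck levels, Hoxc6 and Hoxc8 at forelimb and upper thoracic levels, Hoxc9 at thoracic levels, Hoxc10 and Hoxc11 at lumbar and sacral levels, and Hoxc12 and Hoxc13 in the tail, with Hoxc13 also needed in hair follicles.

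The genes span 115.8 kb of the GRCm38 build (chr15:102921103-103036852), all are transcribed from the + strand, and Hoxc13 lies at the start and Hoxc4 at the end. The start of the protein-coding transcript lay 15.7 kb from that of Hoxc13 for Hoxc12, 33.3 kb for Hoxc11, 45.7 kb for Hoxc10, 55.9 kb for Hoxc9, 69.5 kb for Hoxc8, 88.5 kb for Hoxc6, 92.7 kb for Hoxc5 and 113.3 kb for Hoxc4. The genes are paralogues, so their homeoboxes are alike, and the 36 bases below of 6 members, from the part that encodes the DNA-recognition helix, are shown because the values that follow rest on reads being told apart between them. They are in lower case, with capitals at each base that differs from Hoxc8, and were read from GRCm38 with the GENCODE M21 annotation.
Hoxc13 (chr15:102927345-102927380, + strand): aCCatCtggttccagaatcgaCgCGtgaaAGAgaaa
Hoxc12 (chr15:102938443-102938478, + strand): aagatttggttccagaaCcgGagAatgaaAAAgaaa
Hoxc11 (chr15:102956615-102956650, + strand): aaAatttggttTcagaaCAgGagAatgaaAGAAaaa
Hoxc10 (chr15:102970983-102971018, + strand): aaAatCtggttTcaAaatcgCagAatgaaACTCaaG
Hoxc9 (chr15:102984065-102984100, + strand): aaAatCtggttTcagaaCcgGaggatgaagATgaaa
Hoxc8 (chr15:102992706-102992741, + strand): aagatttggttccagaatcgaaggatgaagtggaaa
Of the 36 bases, 6 (Hoxc12) to 11 (Hoxc10) differed from Hoxc8 in the members shown, and 4 in Hoxc5, the closest to Hoxc8. Across whole transcripts the longest identical stretch of each member with another gene was sought, from 49 bases up. The one pair of members found was Hoxc5 and Hoxc10, which share 168 bases because a Hoxc5 transcript starts inside a Hoxc10 exon. Hoxc9 shares 73 bases with Gm10521 and Hoxc8 shares 57 with Sfrp1, genes that are not members. How reads in these stretches were assigned was not examined.

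Library totals ranged from 25748897 to 38128366 counts, and levels are given as CPM (counts scaled to library size with TMM factors) or, where genes are compared with each other, as TPM (transcript abundance within a library, which allows for length). The induced gene rose with Dox at each day, with Rnaseh1 at 136.8 to 171.6 CPM in Dox and 25.8 to 30.3 CPM in control libraries at day 0, and 53.7 to 60.4 CPM in Dox and 19.3 to 20.1 CPM in control libraries at day 5. The 7 pluripotency genes summed to 4057.3 to 4231.9 CPM in Dox and 4010.7 to 4124.0 CPM in control cells at day 0, and to 9.88 to 16.5 CPM over all 6 libraries at day 5. Dox replicate 2 of day 0 stood apart with 53286.8 CPM of the rRNA gene CT010467.1, against 1531.1 and 2084.4 CPM in its 2 partners. Leaving it out changed no call of a Hoxc gene between Dox and control at day 0 or day 5.

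At day 0, in stem cells, the tail end of the cluster was the part with the most RNA. Hoxc13 was the highest of the 9 at 12.1 ± 2.15 TPM in Dox and 12.9 ± 0.924 TPM in control cells (SD, n = 3 each). Hoxc12 followed at 4.99 ± 0.725 TPM in Dox and 4.34 ± 1.98 TPM in control cells. Hoxc4, at the opposite end, came next at 3.21 ± 1.15 TPM in Dox and 3.55 ± 0.537 TPM in control cells, and its range overlapped that of Hoxc12 in both groups. Hoxc10 to Hoxc13 together made up 76.4 to 84.5% of the cluster's TPM in Dox and 77.8 to 80.7% in control cells. The remaining genes were low: Hoxc10 averaged 1.26 TPM in Dox and 0.883 TPM in control cells, Hoxc11 averaged 0.753 TPM in Dox and 0.62 TPM in control cells, and Hoxc9, Hoxc5, Hoxc6 and Hoxc8 each averaged 0.42 TPM or less in either group. Among those low genes most neighbours in the order overlapped in range.

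No Hoxc gene differed between Dox and control cells at day 0 by edgeR at an adjusted p under 0.05 over all 17795 genes tested, against 1.04% of all genes. None had an unadjusted p under 0.05 in edgeR, and neither DESeq2 nor limma-voom called any (1 member had an unadjusted p under 0.05 in each). Hoxc13 held 19.3, 20.7 and 27.4 CPM in Dox and 22.3, 23.8 and 24.7 CPM in control libraries. The groups overlapped, with Dox replicate 3 the highest of the 6 and Dox replicates 1 and 2 the lowest, and the log2 fold change of Dox over control was -0.07 (95% interval -0.32 to 0.17). Hoxc12 held 3.73, 3.70 and 2.95 CPM in Dox and 2.34, 2.12 and 4.38 CPM in control libraries, a log2 fold change of 0.24 (interval -0.37 to 0.84). Hoxc4 held 3.65, 3.82 and 6.78 CPM in Dox and 4.64, 4.98 and 5.88 CPM in control libraries, a log2 fold change of -0.11 (interval -0.52 to 0.30). In all 9 genes the 2 groups overlapped, while 10.2% of all genes did not, and the log2 fold changes lay between -0.64 (Hoxc6) and 0.69 (Hoxc5, interval -0.01 to 1.40). Between libraries of the same number, Hoxc5 and Hoxc10 were higher and Hoxc8 lower in Dox in 3 of 3 pairs. The share of all genes with such agreement was not computed, so this is a description and not a result about these members. With the replicate block in edgeR the adjusted p of Hoxc5, Hoxc10 and Hoxc8 were 0.45, 0.54 and 0.65. Replicate 3 was the highest library of both groups for 5 genes (Hoxc4, Hoxc5, Hoxc6, Hoxc8 and Hoxc13), and the labels name the replicate number as a batch.

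**Figure D1:**
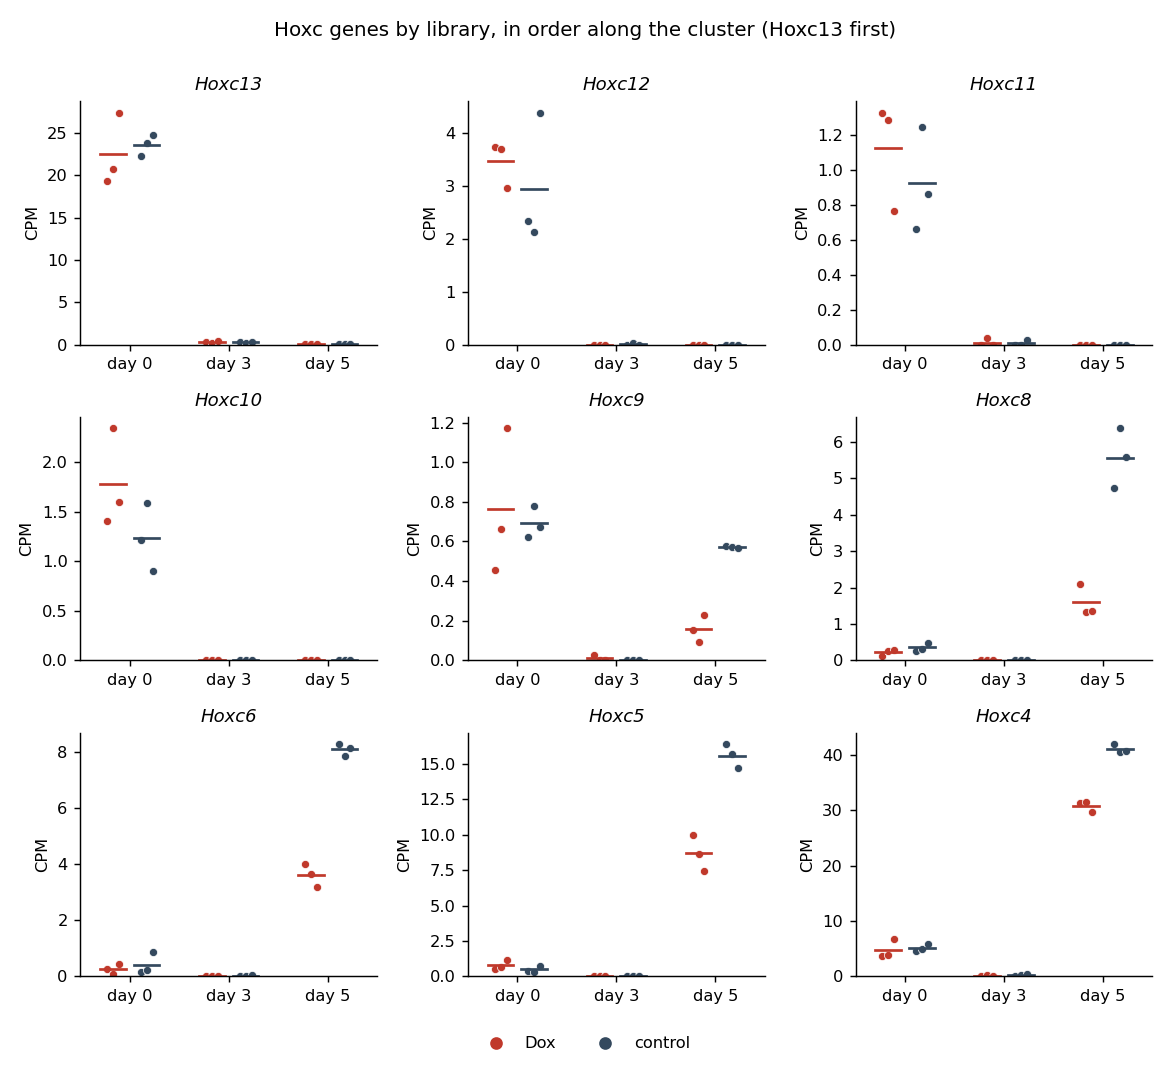
CPM of each Hoxc gene in each library (points) with the group mean (bars), Dox left of control at days 0, 3 and 5, with a separate scale per gene. Hoxc10 to Hoxc13 are highest at day 0, and in Hoxc4 to Hoxc9 the Dox libraries of day 5 all lie below the control libraries.

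By day 3 the cluster was nearly silent in both groups. The 9 genes summed to 0.293 ± 0.0451 TPM in Dox and 0.387 ± 0.139 TPM in control gastruloids at day 3 (SD, n = 3 each), against 23.4 ± 2.75 TPM in Dox and 23.6 ± 3.87 TPM in control cells at day 0. All 9 members fell between day 0 and day 3 in edgeR in the Dox libraries (35.9% of all genes fell) and all 9 in the control libraries (36.3% of all genes fell). With the libraries of each comparison fitted alone, 7 of 7 members tested were called in Dox and 6 of 6 in control. A member could meet the filter on low counts in those fits only through day 0, where it was higher, so these calls add no support. Hoxc10 to Hoxc13 passed the filter on low counts through day 0 alone, so their falls are a description of where they had RNA. In bulk RNA, fewer cells of a type and less RNA per cell cannot be told apart.

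Hoxc13 and Hoxc4 made up most of what was left. Hoxc13 had 12, 7 and 15 counts in Dox and 9, 7 and 11 counts in control libraries at day 3. It was 63.7-fold lower than at day 0 in Dox and 93.2-fold lower in control libraries. Hoxc4 held 0, 4 and 2 counts in Dox and 3, 6 and 14 counts in control libraries, 70.3-fold lower than at day 0 in Dox and 25.3-fold lower in control libraries. The other 7 genes had at most 3 counts in any group of 3 libraries. Hoxc12, with 266 counts at day 0 and 0 at day 3 in Dox, was at least 36.3-fold lower, taking 3 counts per library as the floor. Hoxc10 was at least 18.7-fold lower in Dox and at least 14.6-fold lower in control libraries on the same floor. Hoxc8 had no count in any of the 6 libraries of day 3. Intervals and floors cover counting error only.

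At day 3 edgeR called no Hoxc gene between Dox and control, against 0.0169% of all genes, and DESeq2 and limma-voom called none either. Hoxc4 was the 1 gene with an unadjusted p under 0.05, with 6 counts over the 3 Dox libraries and 23 over the control libraries, and its groups overlapped. For 7 of the 9 genes neither group rose above the floor, so a difference between them was not detectable at this depth.

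At day 5 the end of the cluster with the most RNA was the opposite one. Hoxc4 was highest, at 25.7 ± 1.04 TPM in Dox and 33.8 ± 1.97 TPM in control gastruloids (SD, n = 3 each). Hoxc5 stood at 5.19 ± 0.647 TPM in Dox and 10.9 ± 1.08 TPM in control, and Hoxc6 at 3.91 ± 0.486 TPM in Dox and 8.70 ± 0.455 TPM in control. Hoxc8 stood at 1.39 ± 0.396 TPM in Dox and 4.73 ± 0.50 TPM in control, and Hoxc9 at 0.11 ± 0.05 TPM in Dox and 0.387 ± 0.0208 TPM in control. The level thus stepped down from Hoxc4 to Hoxc9 in the order of the genes, and at each step the ranges of the neighbours did not overlap in either group. Hoxc10, Hoxc11 and Hoxc12 had no count in the 6 libraries, and Hoxc13 had 2, 2 and 2 counts in Dox and 2, 3 and 2 in control. Hoxc10 to Hoxc13 made up 0.103 to 0.116% of the cluster's TPM in Dox and 0.0513 to 0.108% in control, where at day 0 they made up most of it.

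**Figure D2:**
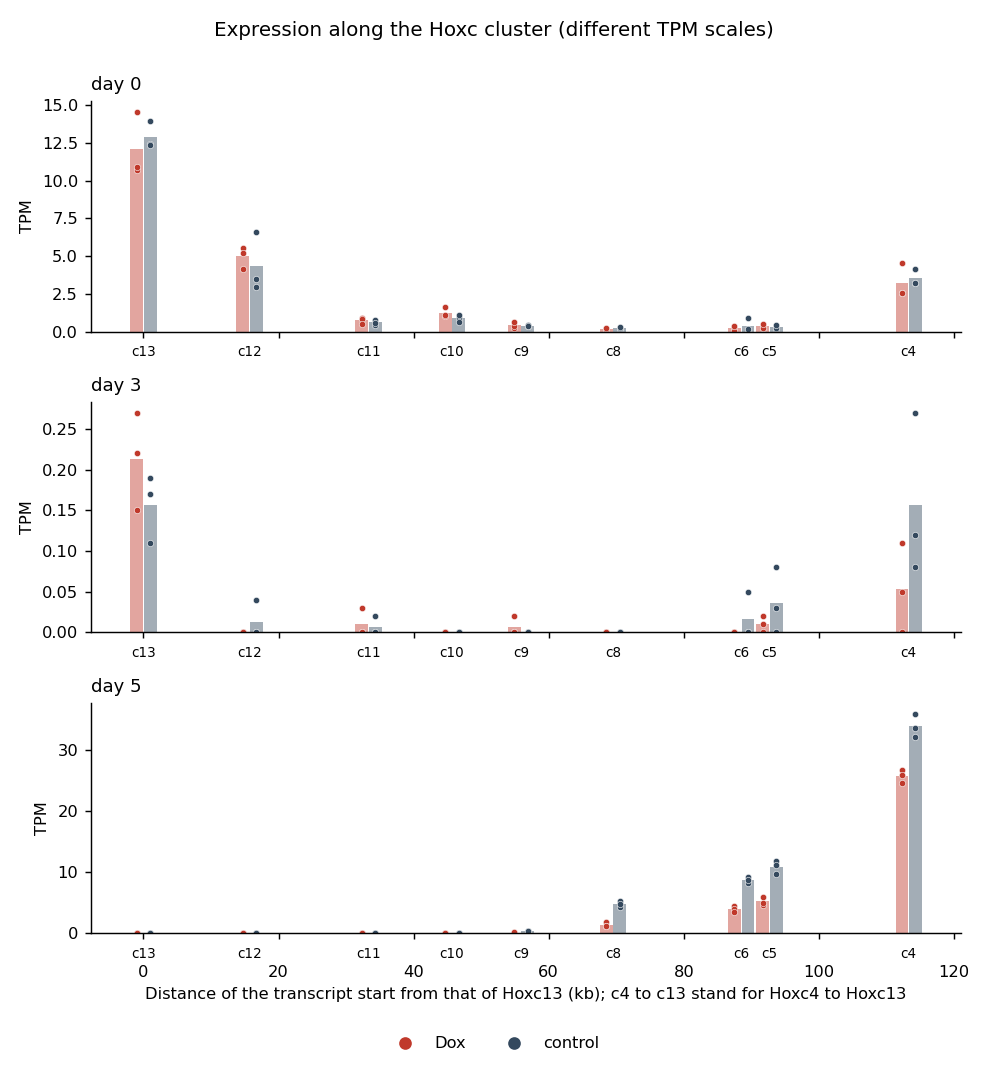
TPM of the 9 Hoxc genes (bars, group mean; points, libraries) against the distance of each transcript start from that of Hoxc13 in kb, for days 0, 3 and 5, with a separate scale per day and Dox left of control. The largest bars are at Hoxc13 at day 0 (12.1 TPM Dox, 12.9 TPM control) and at Hoxc4 at day 5 (25.7 TPM Dox, 33.8 TPM control).

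Between day 3 and day 5, 5 members rose (Hoxc4, Hoxc5, Hoxc6, Hoxc8 and Hoxc9) and 1 fell (Hoxc13) in edgeR, in Dox as in control libraries. Hoxc6 and Hoxc8 met the filter on low counts through day 5 alone, so their rises are a description of where they had RNA. Of all genes 32.2% rose and 32.9% fell in the Dox libraries, and 31.7% rose and 33.1% fell in the control libraries. Hoxc4 was 455.7-fold higher at day 5 than at day 3 in Dox, resting on 6 counts at day 3, and 201.2-fold higher in control libraries. Hoxc5 was 411.1-fold higher in Dox (95% counting interval 113.5 to 3399.9) and 558.9-fold higher in control libraries (190.9 to 2713.3). Hoxc8 was at least 16.7-fold higher in Dox and at least 65.9-fold higher in control libraries, and Hoxc6 at least 37.7-fold higher in Dox and 437.6-fold higher in control libraries (120.7 to 3619.5). Hoxc9 was 15.1-fold higher in Dox (2.35 to 634.8) and at least 6.76-fold higher in control libraries. The Dox and control folds were not compared, since each rests on a few counts at day 3.

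In Dox gastruloids of day 5, Hoxc4 to Hoxc9 all had lower values than in control, by 1.33-fold at Hoxc4 and 3.48-fold at Hoxc8. Hoxc5, Hoxc6, Hoxc8 and Hoxc9 fell (4 of 9 members at an adjusted p under 0.05 in edgeR, against 2.34% of all genes lower and 4.74% called in either direction), and Hoxc4 did not pass. No member rose. The 9 genes summed to 36.4 ± 2.36 TPM in Dox and 58.6 ± 2.95 TPM in control (SD, n = 3 each), or to 31.2 ± 1.85 TPM in Dox and 47.7 ± 1.98 TPM in control without Hoxc5 and Hoxc10, whose exons overlap.

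Hoxc8, which patterns the brachial and thoracic spinal cord and ribs, held 2.10, 1.34 and 1.36 CPM in Dox and 4.74, 6.37 and 5.58 CPM in control libraries. The highest Dox library lay well below the lowest control library. The log2 fold change was -1.80 (SE 0.25, adjusted p = 0.00055), a 3.48-fold difference.

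Hoxc9, which sets thoracic identity in motor neurons, was near the limit of detection with 5, 3 and 8 counts in Dox and 17, 18 and 22 counts in control libraries. In CPM this was 0.152, 0.0915 and 0.231 in Dox and 0.576, 0.570 and 0.566 in control. The groups did not overlap, and the log2 fold change was -1.82 (SE 0.45, adjusted p = 0.026).

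Hoxc6, a thoracic and forelimb-level gene, held 3.99, 3.63 and 3.18 CPM in Dox and 8.27, 7.86 and 8.15 CPM in control libraries. The control libraries lay close together and well above the Dox libraries, with a log2 fold change of -1.17 (SE 0.31, adjusted p = 0.039).

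Hoxc5, which acts at neck and upper thoracic levels, held 9.98, 8.63 and 7.45 CPM in Dox and 16.4, 15.7 and 14.7 CPM in control libraries. The groups did not overlap, and the log2 fold change was -0.84 (SE 0.20, adjusted p = 0.015).

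Hoxc4, the highest of the cluster at this day, held 31.3, 31.5 and 29.6 CPM in Dox and 41.9, 40.5 and 40.7 CPM in control libraries. Here too the groups did not overlap, but the log2 fold change of -0.41 (SE 0.17) had an adjusted p of 0.21 with the spread pooled over all 18 libraries. When the 6 libraries of day 5 were fitted alone, 5 members were left by the filter on low counts and 5 passed the test, Hoxc4 with an adjusted p of 0.00057. More genes of any kind were called there. With all 18 libraries edgeR called 417 genes lower and 426 higher, and with the 6 alone 779 lower and 849 higher. In the fit of the 6 alone Hoxc9 met the filter through the control libraries alone, where it was higher, so its pass there adds no support. DESeq2 over all 18 libraries called 3 members, with 618 of all genes lower and 668 higher, and gave no adjusted p for Hoxc9. In 5 of the 9 members the Dox libraries lay wholly below the control libraries, against 12.3% of all genes.

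The calls differed in how much they leaned on single libraries. Hoxc8 passed without any one of the 18 libraries in turn (adjusted p up to 0.0072 over all alternatives). Hoxc6 was lost without any one of the 6 day 5 libraries (adjusted p 0.085 to 0.20), and also without control replicate 2 or 3 or Dox replicate 3 of day 3 (0.051 to 0.052). Hoxc5 and Hoxc9 each passed without 1 of the 6. Hoxc5 was lost without control replicate 1, 2 or 3 or Dox replicate 2 or 3 (adjusted p 0.055 to 0.12), and Hoxc9 without control replicate 1, 2 or 3 or Dox replicate 1 or 2 (0.066 to 0.15). Without a day 5 library the number of members called was 1 or 2 instead of 4, while the log2 fold changes stayed between -2.19 and -0.74 for these 4 genes.

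**Figure D3:**
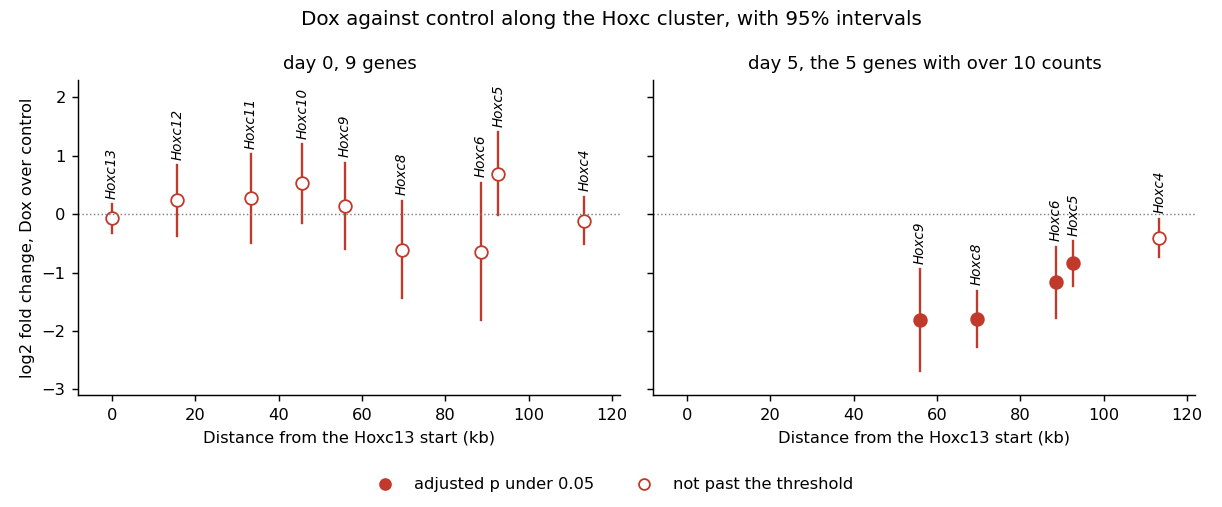
Log2 fold change of Dox over control for the Hoxc genes (points, 95% intervals as lines) against distance from the Hoxc13 start in kb, at day 0 (left) and day 5 (right); filled points passed an adjusted p of 0.05. At day 0 the values lie on both sides of 0 from -0.64 to 0.69, and at day 5 they run from -1.82 at Hoxc9 to -0.41 at Hoxc4.

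Ratios of counts within a library do not depend on scaling. Hoxc8 over Hoxc4 was 0.0670, 0.0426 and 0.0459 in Dox and 0.113, 0.157 and 0.137 in control libraries. The ratio was lower in every Dox library, by 1.41 on the log2 scale (SE 0.25). Step by step along the cluster, the log2 ratio changed by -0.44 (SE 0.11) for Hoxc5 over Hoxc4, by -0.32 (SE 0.06) for Hoxc6 over Hoxc5 and by -0.65 (SE 0.21) for Hoxc8 over Hoxc6. None of these 3 ratios overlapped between the groups. Hoxc9 over Hoxc8 did overlap, with 0.0725, 0.0682 and 0.170 in Dox and 0.121, 0.0896 and 0.101 in control libraries, a change of -0.13 (SE 0.44). With 3 against 3 libraries the smallest 2-sided exact permutation p is 0.10, which the non-overlapping ratios reached, so no ratio could pass 0.05. In all, 10 ratios were computed.

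**Figure D4:**
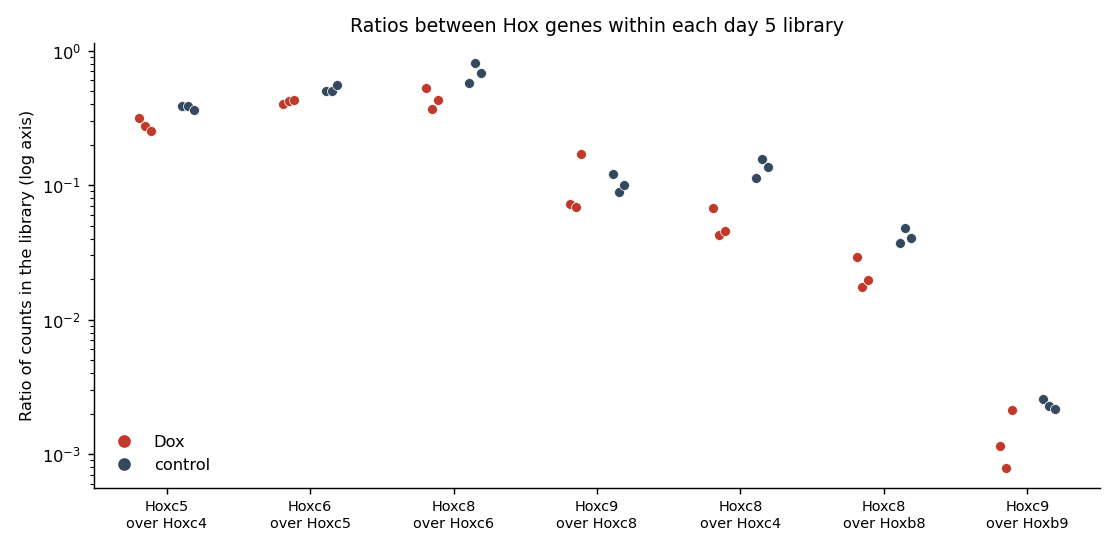
Ratio of counts between pairs of Hox genes within each day 5 library (points, log axis), Dox left of control. Hoxc8 over Hoxc4 lies between 0.0426 and 0.0670 in Dox and between 0.113 and 0.157 in control, while Hoxc9 over Hoxc8 overlaps.

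Whether the Dox difference itself changed between days was tested as an interaction. From day 0 to day 5 the difference fell for Hoxc5 (1 of 9 members, against 1.52% of all genes lower and 3.28% in either direction), by 1.54 on the log2 scale (SE 0.41, adjusted p = 0.045 in edgeR). Hoxc5 had 0.498, 0.624 and 1.17 CPM in Dox and 0.390, 0.312 and 0.749 CPM in control cells at day 0, so the call sets a day 5 fall against a day 0 value on the other side of 0. The call was lost in limma-voom (adjusted p = 0.076) and without any one of 13 of the 18 libraries (adjusted p up to 0.17). These were control replicates 1 and 2 and Dox replicate 3 of day 0, control replicates 2 and 3 and all Dox replicates of day 3, and all control replicates and Dox replicates 2 and 3 of day 5. For Hoxc8 the change was -1.19 (SE 0.51, adjusted p = 0.27) and for Hoxc9 -1.96 (SE 0.59, adjusted p = 0.085), neither past the threshold. From day 3 to day 5 edgeR called no member, against 0.82% of all genes, none had an unadjusted p under 0.05, and DESeq2 and limma-voom called none (0 and 2 members at an unadjusted p under 0.05). The lower Hoxc levels of day 5 are thus not shown to differ from the Dox difference at day 3, where there was almost no Hoxc RNA to compare.

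The Hox genes of the other clusters were set beside the Hoxc members of the same paralogue number. At day 5, 3 of 10 Hoxa genes tested, 5 of 10 Hoxb genes and 2 of 6 Hoxd genes were lower in Dox and none was higher, against 2.34% of all genes lower and 2.39% higher. Hoxa7 fell by 1.62 on the log2 scale and Hoxa5 by 1.10, and Hoxb5 by 1.06, Hoxb9 by 1.05, Hoxb6 by 0.89 and Hoxb8 by 0.87. Hoxd8 fell by 1.15 and Hoxd4 by 0.76. The median log2 fold change over the tested genes was -0.41 for Hoxc, -0.65 for Hoxa, -0.79 for Hoxb and -0.49 for Hoxd, against 0.00 for all genes. The Hoxc median counts 3 genes without any count at day 5 at 0. Over genes with at least 0.5 CPM in a group at day 5, the median was -1.17 for 5 Hoxc genes and -1.07 for 7 Hoxa genes. It was -0.70 for 9 Hoxb genes and -0.48 for 4 Hoxd genes. The order of the clusters thus depends on the genes counted, and Hoxc9 and Hoxa6 reached that level in control alone.

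At the low-number end some values lay above 0, with Hoxa2 at 52.4 ± 4.24 CPM in Dox and 38.5 ± 2.3 CPM in control and Hoxb2 at 106.2 ± 9.75 CPM in Dox and 77.3 ± 3.25 CPM in control (SD, n = 3 each), though neither passed (adjusted p = 0.33 and 0.081). There is no Hoxc gene of those numbers. Hoxc8 was lower against its paralogue too. Hoxc8 over Hoxb8 was 0.0291, 0.0174 and 0.0196 in Dox and 0.0368, 0.0480 and 0.0406 in control libraries, a log2 change of -0.95 (SE 0.25, exact p = 0.10, the smallest possible). Hoxc9 over Hoxb9 changed by -0.90 (SE 0.42) without overlap, on few Hoxc9 counts. Hoxc4 over Hoxb4 ranged from 0.963 to 1.05 in Dox and 1.03 to 1.08 in control, with overlap. Against Hoxd4 and Hoxa5 the direction was the other way, with Hoxc4 over Hoxd4 higher by 0.35 (SE 0.04) and Hoxc5 over Hoxa5 by 0.25 (SE 0.08) in Dox, both without overlap.

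**Figure D5:**
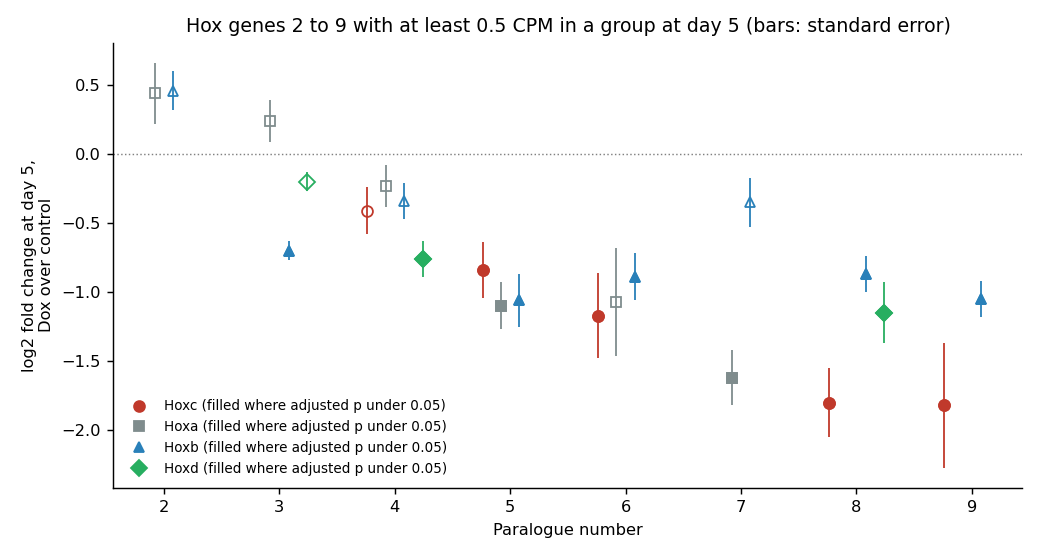
Log2 fold change of Dox over control at day 5 (points; lines, standard error) by paralogue number for Hox genes of numbers 2 to 9 with at least 0.5 CPM in a group; filled points passed an adjusted p of 0.05. The Hoxc points go from -0.41 at number 4 to -1.82 at number 9, and the points above 0 are Hoxa2, Hoxa3 and Hoxb2, while Hoxc9 and Hoxa6 reach 0.5 CPM in control alone.

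Genes that act upstream of Hox genes or with Hox proteins were also compared. Aldh1a2, which makes retinoic acid, held 3.94 ± 1.59 CPM in Dox and 13.6 ± 1.63 CPM in control at day 5 (SD, n = 3 each). This was a fall of 1.79 on the log2 scale (adjusted p = 8.4e-05). The retinoic acid receptor genes Rarg and Rarb fell by 0.71 and 0.63. These 3 were the members called among 11 upstream inputs tested, against 2.34% of all genes lower. In edgeR 8 of the 11 had an unadjusted p under 0.05, a share that was not taken over all genes. At day 0, 1 of the 11 passed, against 1.04% of all genes called in either direction. It was Cdx1, a caudal gene that acts on Hox genes, at 12.8 ± 4.3 CPM in Dox and 40.2 ± 11.8 CPM in control cells (SD, n = 3 each). Cdx1 fell by 1.66 on the log2 scale (adjusted p = 0.00059). Of 9 Hox cofactors 1 passed at day 5, with Pbx3 higher by 0.32 (adjusted p = 0.013). Of 15 Polycomb and trithorax genes 1 passed, with Jarid2, a partner of the PRC2 complex, higher by 0.43 (adjusted p = 0.0032). The Pbx3 and Jarid2 calls stand against 4.74% of all genes called in either direction at day 5. Of 6 regulators of posterior Hox genes edgeR, DESeq2 and limma-voom called none (0 at an unadjusted p under 0.05), with Lin28a at a log2 fold change of 0.20 and Nr6a1 at -0.05.

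Levels of markers of the cell types a gastruloid can hold were also compared at day 5, each list as its summed CPM and by its calls, against 2.39% of all genes higher and 2.34% lower. Neural tube genes summed to 1338.6 to 1433.5 CPM in Dox and 1367.1 to 1419.1 CPM in control, with 4 higher and 4 lower of 12. Somite and presomitic genes summed to 79.1 to 104.4 CPM in Dox and 122.5 to 142.1 CPM in control, with 3 lower of 10 tested, and Msgn1 had no count. Pax1, a sclerotome gene, fell by 3.14 on the log2 scale. Tailbud genes summed to 11 to 12.6 CPM in Dox and 19.2 to 22.3 CPM in control, with none of 8 called by edgeR or limma-voom, 1 by DESeq2 and 5 at an unadjusted p under 0.05. Hindbrain and anterior genes summed to 18.2 to 23.8 CPM in Dox and 6.81 to 9.32 CPM in control, with 2 higher of 5 tested, Egr2 among them by 2.62. Endoderm genes summed to 11.1 to 13.4 CPM in Dox and 18.5 to 22.5 CPM in control, with 3 lower of 7. Lateral plate and intermediate mesoderm genes summed to 5.11 to 5.69 CPM in Dox and 6.43 to 6.54 CPM in control, with none of 7 tested called by edgeR (4 at an unadjusted p under 0.05, 0 by DESeq2, 1 by limma-voom). Neural crest genes summed to 15.1 to 15.6 CPM in Dox and 21.1 to 26.3 CPM in control, with 1 higher and 1 lower of 4 tested. Most of that sum was Ets1, which fell by 0.71 on the log2 scale, while Tfap2b rose by 1.86 and the median log2 fold change of the list was 0.46. Motor neuron genes summed to 3.08 to 4.29 CPM in Dox and 2.91 to 3.26 CPM in control, with 2 higher of 6. The sums of endothelial and pluripotency genes overlapped between the groups, with 1 higher and 1 lower of 7 pluripotency genes and none of 4 endothelial genes called by edgeR, DESeq2 or limma-voom (0 at an unadjusted p under 0.05). The part of these cell types in the Hoxc differences was not tested.

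None of the genes beside the cluster passed the test. The nearest protein-coding genes, Atp5g2 and Calcoco1 beyond Hoxc13 and Smug1 and Cbx5 beyond Hoxc4, had log2 fold changes of 0.02, 0.18, 0.03 and -0.02 at day 5, with adjusted p of 0.94, 0.18, 0.89 and 0.97. Inside the cluster Hotair, a long noncoding RNA on the - strand between Hoxc12 and Hoxc11, had 0 counts in all 18 libraries, as did the microRNA genes Mir196a-2 and Mir615. Of the 4 further small noncoding genes there, 1 had a single count. The strand setting of the counting is not given in the sources used here, so reads of an antisense partner cannot be told from those of a gene.

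Transcript choice within the genes was read from the mean transcript length per gene that the deposited tables give. For Hoxc5, a noncoding transcript of 615 bases that starts in the first exon of Hoxc10 and runs across 47.6 kb of intron took 6.1, 0.0 and 21.1% of its RNA in Dox and 26.2, 18.1 and 33.8% in control libraries of day 5. The groups overlapped. Hoxc10 itself had no count at day 5. The 30 bases across the splice junction of that transcript, from chr15:102967594-102967608 to chr15:103015228-103015242 of GRCm38, + strand, are shown because this is the join between the ends of both genes, with the Hoxc5 side in capitals.
Hoxc5 long transcript junction: ataacgaagctaaagAGACGGATGGCAAGC
The first 166 bases of this transcript lie in the Hoxc10 exon, so an assignment of reads there to Hoxc5 or Hoxc10 is uncertain. Because the mean length differed, the TPM of Hoxc5 depends on the split between its own transcripts, while its counts do not. Its counts do depend on how reads in the bases shared with Hoxc10 were assigned. For Hoxc4, the transcript that starts far upstream took 5.3, 5.9 and 4.5% in Dox and 6.3, 8.3 and 6.1% in control libraries of day 5, without overlap. For Hoxc8, a retained-intron transcript took 16.8, 3.6 and 21.1% in Dox and 14.4, 17.4 and 18.5% in control, with overlap, and Hoxc9 showed a single transcript.

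Mir196a-2, between Hoxc10 and Hoxc9, makes miR-196a, a microRNA known in the mouse to act on Hoxb8 and Hoxc8 messages. Poly(A) libraries do not measure mature microRNAs. The mature sequence from RefSeq (GRCm38.p6, chr15:102973365-102973386, + strand), with its seed (bases 2 to 8) in capitals, and the matches to that seed in the Hoxc8 3′ untranslated region, with the match in capitals, are shown because Hoxc8 was the member called under every alternative and, of the 9, the one that holds the match.
mmu-miR-196a-5p: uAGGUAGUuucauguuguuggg
Hoxc8 site 1 (chr15:102992976-102992997, + strand): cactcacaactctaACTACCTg
Hoxc8 site 2 (chr15:102993733-102993754, + strand): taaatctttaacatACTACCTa
The letters ACTACCT, searched on the transcribed strand, occurred 2 times in the 966 bases of the Hoxc8 3′ untranslated region and in 6.8% of 21173 genes with such a region, or 3.9% of 2925 genes with one of near length. A match is a description of these letters and not a measured site.

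The genes whose pattern over the 18 libraries was most like the mean of the 9 Hoxc genes (Pearson r of log2 CPM, outside the Hox clusters and with at least 5 CPM in a group) included Ptges (r = 0.994), Tmem229b (0.991), Idh2 (0.99) and Nol4l (0.99). Ptges, a prostaglandin E synthase, averaged 10.1 CPM in Dox and 16.9 CPM in control at day 5 and 48.8 CPM in Dox and 43.6 CPM in control at day 0. At day 3 it averaged 1.39 CPM in Dox and 1.48 CPM in control. The 18 libraries fall into 3 days, and each r is a description over them. For Hoxc4 to Hoxc9 alone the most alike included Phlda1 (r = 0.991) and Ckap2 (0.99), and for Hoxc10 to Hoxc13 Cdc5l (0.998) was among them, a split chosen after the values were seen.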

How the data were processed

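The deposited tables hold, per gene and library, expected counts (estimated counts, not scaled to depth) and TPM made by the authors, with RSEM 1.3.3, STAR 2.7.10a, Trimmomatic and DESeq2 1.38.2 named per the submitters' processing notes. FPKM was not used. Annotation release and strand setting are not given in the sources used here. Gene symbols came from GENCODE M21 (55141 of 55401 IDs matched). Sequences came from GRCm38, miRNAs from RefSeq.

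Expected counts were rounded. The quasi-likelihood test of edgeR 4.0.16, run under R 4.3.3 after TMM scaling, used the genes that filterByExpr left, 17795 in all, with all 9 Hoxc genes among them. The fit held 18 libraries, a mean per group and 12 residual degrees of freedom. The threshold was 0.05 after Benjamini-Hochberg adjustment across every gene tested. DESeq2 1.42.0 and limma 3.58.1 were alternatives, and log2(TPM + 0.1) a further one. A fold against a group without counts used a floor of 3 counts per library. On simulated counts the test was checked before use.

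Batch tags equal replicate numbers. Deviations of same-numbered libraries correlated at r of 0.206 to 0.331 at day 0, 0.010 to 0.036 at day 3 and 0.022 to 0.051 at day 5, so the numbers pair samples by label.

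Members, gene lists and named genes were chosen with earlier results of these data known. From each list up to 4 genes past the threshold at day 5 were named, or the 2 highest where none passed. Hoxa2, Hoxa3, Hoxb2, Hoxa6, Cdx1, Hotair, Mir196a-2 and Mir615 were named after their values were seen. Some items are not reported here.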

Additional observations from a re-analysis of the deposited data

Results flagged for a closer look

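The Dox difference of Hoxc5 at day 5 minus that at day 0 was -1.54 on the log2 scale (SE 0.41, adjusted p = 0.045 in edgeR, an interaction test). The call held without 5 of the 18 libraries and was lost without the other 13 (adjusted p up to 0.17), in limma-voom (0.076) and with library size alone (0.057). Hoxc5 averaged 8.69 CPM in Dox and 15.6 CPM in control at day 5, and 0.763 CPM in Dox and 0.483 CPM in control at day 0. The day 0 value rests on 60 counts in Dox and 40 in control, and Hoxc5 shares an exon with Hoxc10. All 3 Dox libraries lay below the control libraries at day 5, and the groups overlapped at day 0.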

How the results depend on the processing

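Depth limits day 3, where 7 of 9 genes stayed at the floor, and Hoxc9 at day 5 (16 counts in Dox, 57 in control). Under 30 alternatives no Hoxc gene was called at day 0 or day 3. At day 5 Hoxc4, Hoxc5, Hoxc6 and Hoxc8 stayed below 0 in all 30, as did Hoxc9 in the 28 that gave it an adjusted p. DESeq2 gave Hoxc9 a log2 fold change of -1.84 without an adjusted p, and the filter of at least 1 CPM in 3 libraries left it out. Without single libraries the members called at day 5 numbered 1 to 5 (4 with all libraries), and those of the interaction of day 5 with day 0 numbered 0 to 1. That interaction gave 0 members with library size alone and in limma-voom and 3 with log2(TPM + 1). The interaction with day 3 gave 1 with log2(TPM + 0.1) and 3 with log2(TPM + 1) instead of 0. The cause was not tested.

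Hoxc4 passed at day 5 in limma-voom (adjusted p = 0.011) and without the filter (0.024), and Hoxc6 did not with library size alone (0.051) or log2(TPM + 0.1) (0.21). For day 3 against day 0, library size alone shifted the all-gene median log2 fold change by 0.153 in Dox and 0.148 in control.

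The sign at day 0 turned without single libraries for Hoxc13 (-0.24 to 0.03), Hoxc4 (-0.47 to 0.04), Hoxc6 (-1.31 to 0.44) and Hoxc9 (-0.31 to 0.40). In the interaction of day 5 with day 0 it turned for Hoxc4 (-0.46 to 0.05) and Hoxc6 (-1.61 to 0.14).

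With the replicate block 4 members were called at day 5 and 1 in the interaction with day 0, and the pairing changed no call of a member. All genes called moved more: for Dox against control 3 to 549 at day 0 (185 as reported), 2 to 98 at day 3 (3), 186 to 2658 at day 5 (843). The interactions gave 45 to 385 with day 3 (146) and 144 to 995 with day 0 (584). Between days a log2 fold change of at least 1 left 6906 of 12925 and 5020 of 11589 genes in Dox and 6925 of 13082 and 5030 of 11523 in control.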
